A study of Mus musculus with 5 samples.

Results

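The genes described here are products and regulators of hormone-sensing luminal cells of the mammary gland, the luminal cells that carry estrogen and progesterone receptors. They are the 9 genes Calca, Gpx3, Fxyd2, Cited1, Stc2, Tph1, Ptn, Ly6a and Ramp3, taken by name from the 12293 named genes of the deposited table, where all 9 were found. RNA was sequenced from 5 libraries of about 50 sorted cells each. The cells came from adult virgin mice whose ovaries had been removed and that had carried hormone pellets for 14 days. All 3 populations were lineage-negative and CD24-positive. The luminal gate was CD29low with GFP (1 library). The basal gate was CD29hi with TdTomato (2 libraries). Cells with GFP in the CD29hi gate were named luminal-derived basal cells (LdBC, 2 libraries). Every group thus shares the loss of the ovaries and the pellets, and no group without hormone is part of the comparison. The labels name neither the hormones nor the mouse strain, nor the promoter behind the GFP and TdTomato labels, and do not say whether libraries of a group came from separate animals.

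Hormone-sensing luminal cells receive the estrogen, progesterone and prolactin signals of the gland, and they pass them to neighbouring luminal and basal cells through secreted factors. Genes of this cell type therefore include receptors, the secreted mediators, and a set of products that are used as markers of the hormone response. Calca encodes both calcitonin and the neuropeptide CGRP, through alternative splicing of the same transcript. Ptn (pleiotrophin, a heparin-binding growth factor), Stc2 (stanniocalcin, a secreted glycoprotein that inhibits pappalysin proteases) and Gpx3 (the secreted glutathione peroxidase, a selenoprotein) also encode secreted proteins. Tph1 encodes the enzyme that sets the rate of serotonin synthesis outside the brain, and serotonin is a local regulator of milk secretion. Fxyd2 encodes a small regulator of the sodium pump, and Cited1 a coactivator that does not itself bind DNA and that takes part in the estrogen response and in ductal growth in mice. Ly6a encodes the surface protein Sca-1, used to sort hormone-sensing luminal cells. Ramp3 encodes an accessory subunit of receptors for calcitonin family peptides.

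Calca and its neighbour Calcb share a long stretch of coding letters, which bears on how far the very high value of Calca can be told from its paralog. The stretch is 170 bases long in both genes and 93.5% identical (159 of 170 bases). It was found by comparing the coding parts of the GENCODE transcripts of GRCm38, the assembly of mm10. Calca lies on chromosome 7 at 114631478 to 114636357 (minus strand) and Calcb at 114718643 to 114723365 of the same chromosome (plus strand). The strand of each gene is shown 5′ to 3′, with the 11 bases that differ in capitals:
Calca: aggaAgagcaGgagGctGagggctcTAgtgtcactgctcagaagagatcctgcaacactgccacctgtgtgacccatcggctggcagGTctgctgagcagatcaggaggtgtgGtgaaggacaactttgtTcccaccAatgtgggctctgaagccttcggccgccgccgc
Calcb: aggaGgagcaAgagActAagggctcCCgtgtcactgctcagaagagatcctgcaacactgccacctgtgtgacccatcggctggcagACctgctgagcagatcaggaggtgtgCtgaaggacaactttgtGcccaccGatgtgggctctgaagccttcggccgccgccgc
Of the 1678 different 50-base words in Calca transcripts, 12 also occur in Calcb (0.715%). Ly6a shares most letters with other genes, with 246 of 1297 words (19.0%) found elsewhere, mainly in Ly6c1. Tph1 shares 6 of 6262 words (0.0958%), and for the other 6 genes the count was 0. The authors' way of dividing fragments between such copies was not given in the sources used here, so the value of Ly6a is uncertain to that extent.

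Promoter letters are shown for Calca, Cited1 and Tph1. These genes were highest in the Luminal library, were listed at 0 in both Basal libraries, and have a window in the RefSeq table (GRCm38.p6) that ends at the base before the annotated gene. Fxyd2 has the same pattern but no entry in that table, which held 7 of the 9 genes. Each line gives the 250 bases before the start on the gene's own strand, which is the minus strand for all 3. The windows are chr7:114636358-114636607 for Calca, chrX:102252182-102252431 for Cited1 and chr7:46672538-46672787 for Tph1. Capitals mark the matches to the motifs searched:
Calca: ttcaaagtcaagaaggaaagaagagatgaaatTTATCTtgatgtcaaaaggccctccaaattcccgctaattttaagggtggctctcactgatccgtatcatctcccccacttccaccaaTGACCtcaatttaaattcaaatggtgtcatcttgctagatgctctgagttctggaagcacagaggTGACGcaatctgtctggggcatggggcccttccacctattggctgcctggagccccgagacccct
Cited1: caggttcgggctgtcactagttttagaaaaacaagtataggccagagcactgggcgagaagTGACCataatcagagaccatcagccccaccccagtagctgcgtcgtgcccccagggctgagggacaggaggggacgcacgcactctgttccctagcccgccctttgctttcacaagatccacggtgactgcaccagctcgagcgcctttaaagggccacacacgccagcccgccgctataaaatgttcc
Tph1: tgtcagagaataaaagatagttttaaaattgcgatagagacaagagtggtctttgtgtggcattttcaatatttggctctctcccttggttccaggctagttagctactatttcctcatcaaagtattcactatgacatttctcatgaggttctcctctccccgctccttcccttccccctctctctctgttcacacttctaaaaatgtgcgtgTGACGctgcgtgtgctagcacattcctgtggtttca
Motifs were searched on both strands. Calca matched the motif of GATA family factors (AGATAA) on the other strand. It also held GGTCA, the core of an estrogen receptor site, on the other strand. A further match was TGACG, the core of a cyclic AMP response element. The window of Cited1 held GGTCA on the other strand, and that of Tph1 held TGACG. Other windows of these genes, not printed, held more: another start of Cited1 had GGTCA and TGACG, and another start of Tph1 had GGTCA and 3 matches to TGACG, counting both strands. Over all 32851 windows of this length, GGTCA was present in 35.2%, TGACG in 17.8% and AGATAA in 9.99%. The full estrogen response element GGTCANNNTGACC, which contains GGTCA on both strands, was in 0.0639% of windows. TTCNNNGAA (STAT) was in 7.02% and TGTTTAC (FOXA) in 3.17%. None of these last 3 motifs was found in the 10 windows of the 7 genes, which says only that these letters are not in these windows. TGTTCT (the core of a progesterone receptor site) was in 16.1% of all windows and in those of Gpx3 and Ptn. Matches of this length are descriptions and not binding sites.

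The table holds log2(FPKM + 1). FPKM is the number of fragments per kilobase of transcript, scaled to the mapped fragments of the library, so levels can be compared between genes. Depth is unknown because no counts are given. Between 8041 (Luminal) and 10979 (Basal-1) genes were above 0. The Luminal library was the least complete by this measure: 162 genes were at 0 there although every other library held them at an FPKM of 10 or more, against 26 in LdBC-1 and 0 to 5 in LdBC-2 and the Basal libraries. A value listed at 0 can be a failed estimate, so no fold is given against a group whose libraries are all at 0. Luminal keratins and claudins marked the GFP-positive libraries: the summed FPKM of Krt8, Krt18, Krt19, Epcam, Cldn3 and Cldn7 was 23138 in Luminal, 27488 and 24437 in LdBC-1 and LdBC-2, and 1063 and 838 in Basal-1 and Basal-2. All 6 basal markers (Krt5, Krt14, Krt17, Acta2, Trp63, Myh11) were listed at 0 in Luminal. Libraries of bulk cells cannot separate fewer cells of a type from less RNA per cell, and this holds for every level below.

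Of the 9 genes, 8 were highest in the Luminal library and 1, Ramp3, was listed at 0 there. Luminal was above all other libraries for 38.5% of the 10626 genes tested. For 7 of the 9, LdBC-2 came second, an order that 15.5% of tested genes had. The full order Luminal, LdBC-2, LdBC-1 and then both Basal libraries held for 4 members (Calca, Gpx3, Fxyd2 and Cited1) and for 6.31% of tested genes. Calca had an FPKM of 41755 in Luminal, 17.5 in LdBC-1 and 1721 in LdBC-2, with both Basal libraries at 0. It was the gene of rank 2 in the Luminal library and made up 5.14% of its summed FPKM. In LdBC-2 it ranked 45 and in LdBC-1 3476. Gpx3 (chromosome 11, 54902453 to 54910377, plus strand) had rank 3 in Luminal with 12671. It had 12.6 in LdBC-1, 703 in LdBC-2, and 10.3 and 2.68 in Basal-1 and Basal-2. LdBC-1 and Basal-1 were closer to each other for Gpx3 than the Basal libraries were among themselves.

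**Figure D1:**
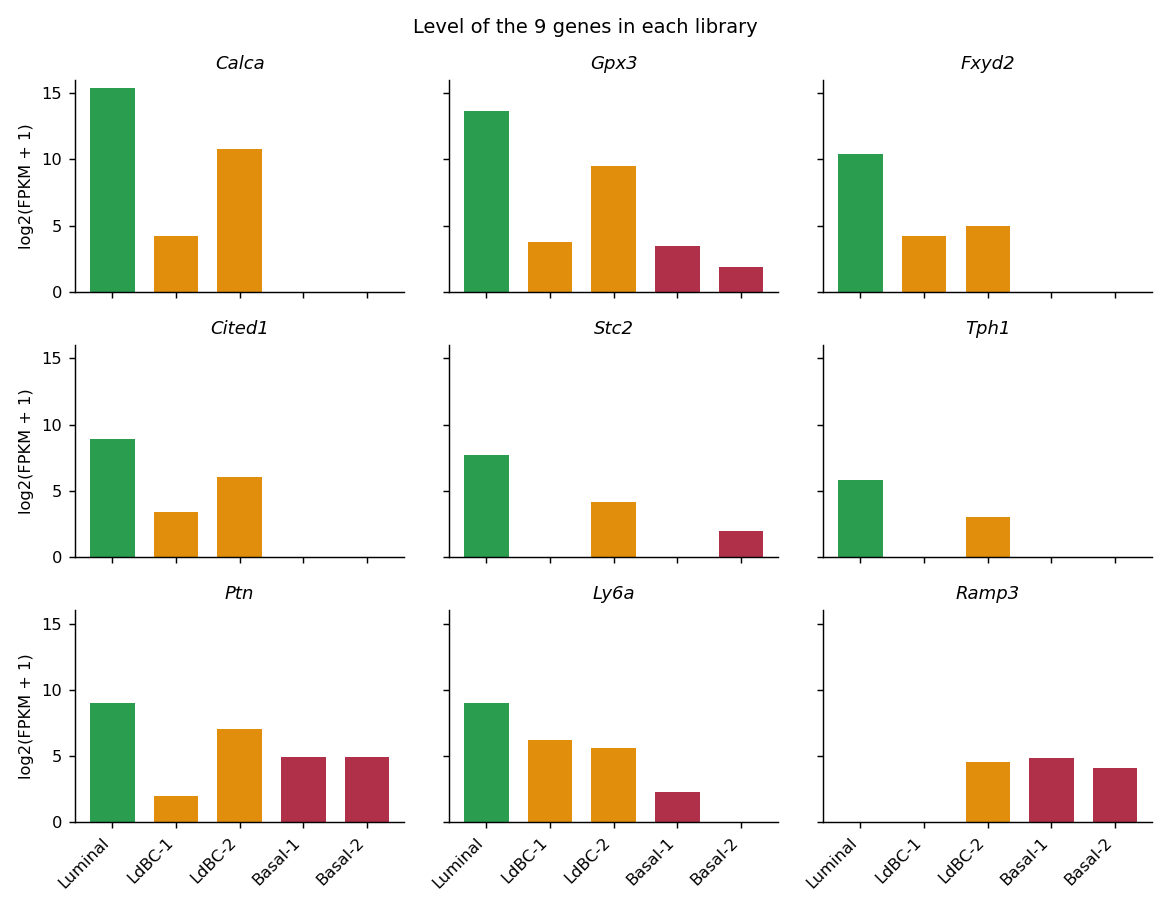
Level of each of the 9 genes as log2(FPKM + 1) in the Luminal library (green), both LdBC libraries (orange) and both Basal libraries (red); 1 bar is 1 library, and a missing bar is a value listed at 0. The Luminal bar is the highest for 8 genes, and for Ramp3 the Luminal and LdBC-1 libraries have no bar.

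The secreted growth factors and hormones differed in what remained outside the Luminal library. Stc2 (chromosome 11, 31357307 to 31370074, minus strand) reached 207 FPKM in Luminal and 17.2 in LdBC-2, was listed at 0 in LdBC-1 and Basal-1, and had 2.88 in Basal-2. Ptn (chromosome 6, 36714929 to 36810220, minus strand) had 518 in Luminal, 2.94 in LdBC-1 and 130 in LdBC-2, with 29.9 and 29.4 in Basal-1 and Basal-2. Among the 9 genes, Ptn was thus present in both Basal libraries at nearly the same level, which lay between the levels of the LdBC libraries.

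The enzyme, the pump regulator and the coactivator had no signal in the Basal libraries. Tph1 (chromosome 7, 46644641 to 46672537, minus strand) reached 54.2 FPKM in Luminal and 7.33 in LdBC-2, and was listed at 0 in the other 3 libraries. Fxyd2 (chromosome 9, 45399669 to 45410278, plus strand) had 1341 in Luminal, 17.3 in LdBC-1 and 30.1 in LdBC-2, with both Basal libraries at 0. Cited1 (chromosome X, 102247381 to 102252181, minus strand) had 482 in Luminal, 9.63 in LdBC-1 and 66.3 in LdBC-2, again with both Basal libraries at 0. Both LdBC libraries therefore lay between Luminal and the Basal values listed at 0 for Fxyd2 and Cited1. The order Luminal, LdBC-2, LdBC-1 and then both Basal libraries was found for 6.31% of tested genes.

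The surface protein gene Ly6a (chromosome 15, 74994877 to 74998031, minus strand) was the only member that was higher in LdBC-1 than in LdBC-2. Its FPKM was 519 in Luminal, 75.1 in LdBC-1 and 47.9 in LdBC-2. It was 3.84 in Basal-1 and listed at 0 in Basal-2. Basal-1 also held endothelial transcripts, with a summed FPKM of 142 for the 4 endothelial markers in the table, against 0.0169 in Basal-2. Of the adipocyte markers, Fabp4 had 473 in Basal-1 and 0 in Basal-2. Lpl, the other adipocyte marker in the table, was highest in the LdBC pair (11.1 and 4.94), with 1.68 in Basal-1 and 0.0232 in Basal-2. Ly6c1 had 63.7 in Basal-1 and 0 in Basal-2. The part of the cells behind these transcripts in the Basal-1 value of Ly6a was not tested.

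Ramp3 (chromosome 11, 6658521 to 6677475, plus strand) went against the label of a luminal gene in the values listed. It was listed at 0 in Luminal and in LdBC-1, and had an FPKM of 22.2 in LdBC-2, 28.3 in Basal-1 and 16.2 in Basal-2. These values at 0 can be failed estimates: Luminal and LdBC-1 had 162 and 26 genes at 0 that every other library held at 10 or more. LdBC-2 lay between the Basal libraries. Of the 5 pericyte markers, Rgs5 was at 0 in Luminal and LdBC-1, at 5.24 in LdBC-2 and at 20.8 and 16.1 in Basal-1 and Basal-2. Notch3 went the other way, with 6.46 and 8.47 in the LdBC pair and 0.201 and 0.0115 in the Basal pair, and Pdgfrb was highest in LdBC-2 (2.17). Des and Cspg4 were at 0 outside the Basal pair. The 5 summed to 0 in Luminal, 6.46 and 15.9 in LdBC-1 and LdBC-2, and 25.1 and 19.5 in Basal-1 and Basal-2. The 4 endothelial markers Pecam1, Kdr, Cldn5 and Emcn summed to 0.0493, 3.88, 0.535, 142 and 0.0169 in the same order. The part of either cell type in the Ramp3 values was not tested. Because the Luminal value was 0, no percent of Luminal exists for Ramp3, and the shares below cover 8 genes.

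As a share of the Luminal level, the LdBC libraries stood far apart. In LdBC-1, Calca was at 0.042% of Luminal, Gpx3 at 0.0991%, Ptn at 0.567%, Fxyd2 at 1.29%, Cited1 at 2.00% and Ly6a at 14.5%, while Stc2 and Tph1 were listed at 0. In LdBC-2, Fxyd2 was at 2.24%, Calca at 4.12%, Gpx3 at 5.55%, Stc2 at 8.32%, Ly6a at 9.23%, Tph1 at 13.5%, Cited1 at 13.8% and Ptn at 25.2%. The median of the 8 genes was 0.333% in LdBC-1 and 8.77% in LdBC-2. All 8 were thus above 0 in LdBC-2, and 6 of 8 in LdBC-1. Of the 5406 genes with a Luminal FPKM of at least 10, 4.55% were at 0 in LdBC-2 and 11.6% in LdBC-1. Of the 768 among them with both Basal libraries under 10% of Luminal, 22.8% and 42.8% were at 0. Calca was 98.1-fold higher in LdBC-2 than in LdBC-1, Gpx3 56.0-fold, Ptn 44.4-fold and Cited1 6.88-fold. Fxyd2 was 1.73-fold higher and Ly6a 0.638-fold, that is, lower in LdBC-2. Both libraries carry the same label, so this difference has no replicate check. The basal markers were also lower in LdBC-1 than in LdBC-2: their sum was 1481 and 2684, with Krt17 at 349 and 835 and Acta2 at 349 and 820, against 11170 and 9167 for the sum in Basal-1 and Basal-2. Krt5 alone was higher in LdBC-1 (29.4 against 20.0). The luminal progenitor markers summed to 121 in Luminal, 1237 in LdBC-1 and 1025 in LdBC-2, most of it Cd14 (93.3, 1106 and 896). Elf5, Kit and Tspan8 were also higher in both LdBC libraries than in Luminal, while Aldh1a3 was lower (17.4, 0 and 5.11). The milk protein genes Csn2, Csn3, Csn1s1 and Lalba summed to 247 in Luminal, 5904 and 8645 in LdBC-1 and LdBC-2, and 908 and 13.4 in Basal-1 and Basal-2. The part of these cell types in the shares of the members was not tested.

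**Figure D2:**
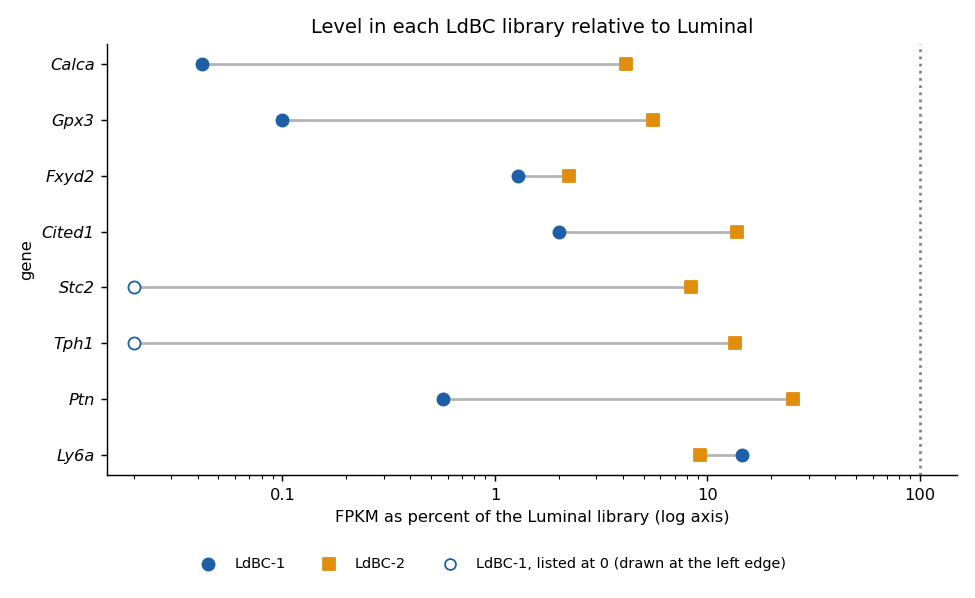
FPKM of the 8 genes detected in Luminal as percent of the Luminal library (log axis), for LdBC-1 (blue circles) and LdBC-2 (orange squares); open circles at the left edge are values listed at 0, and the dotted line marks the Luminal level. Squares sit between 2.24% and 25.2%, while circles run from 0 to 14.5%, and only Ly6a has its circle to the right of its square.

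The shares were read against other genes. Summed FPKM was 813063 in Luminal, 597580 and 605251 in the LdBC pair, and 457513 and 405093 in the Basal pair. The shares here were not rescaled to these totals, which lowers them for the members and for other genes alike. It also raises counts of genes highest in Luminal. Of the 5406 genes with a Luminal FPKM of at least 10, the median share was 44.7% in LdBC-1 and 50.8% in LdBC-2. These genes were picked by their Luminal value, which also favours low shares. A share under 20% was found for 8 of the 8 members in LdBC-1, where 29.0% of these genes had one, and for 7 of 8 in LdBC-2, where 21.1% had one. Many of those 5406 genes are also active in basal cells, however. All 8 members belonged to the 768 genes for which both Basal libraries were under 10% of Luminal. Among these 768 the median share was 0.669% in LdBC-1 and 11.1% in LdBC-2, and a share under 20% was found for 74.3% and 65.5%. The medians of the 8 members (0.333% and 8.77%) thus lay close to those of luminal genes of low basal level as a whole. LdBC-2 was at least 2-fold above LdBC-1 for 6 of the 8 members, for 26.5% of the 5406 genes and for 41.4% of the 768. The reverse, LdBC-1 at least 2-fold above LdBC-2, was found for 0 of 8 members, for 13.0% of the 5406 and for 14.2% of the 768. These thresholds were set with the values known, and no test was made.

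**Figure D3:**
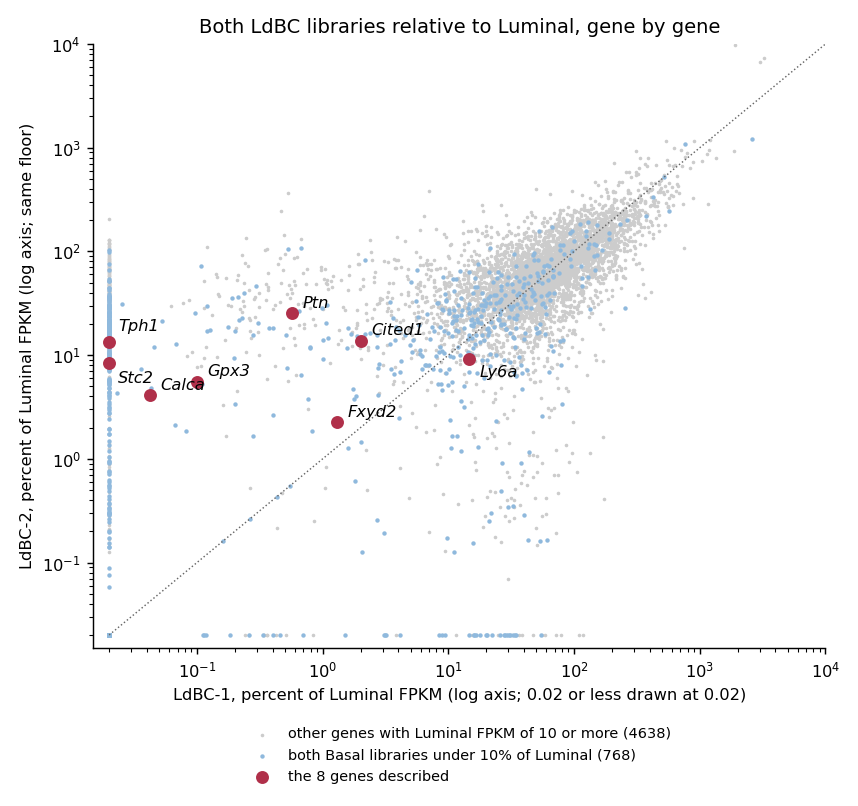
Each point is 1 gene with a Luminal FPKM of at least 10, placed by its share of the Luminal level in LdBC-1 (x) and LdBC-2 (y), both as percent on log axes with 0.02% as the floor; blue points are the 768 genes with both Basal libraries under 10% of Luminal, red points the 8 genes described, which are among them, and the dotted line marks equal shares. Most grey points lie near the line, whereas Calca, Gpx3, Ptn, Cited1, Stc2 and Tph1 lie well above it, in a region that many blue points also occupy.

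The test of LdBC against Luminal asked which transcripts the GFP-positive cells of the basal gate hold at another level than luminal cells. Fxyd2 fell, and was the only 1 of the 9 genes to pass (limma, log2 difference -5.81, SE 0.52, Benjamini-Hochberg adjusted p = 0.044 over 10626 genes, lower in 2 of 2 LdBC libraries). The fit pools the spread over all groups, and both Basal values of Fxyd2 were listed at 0. They add no spread and so lower its standard error, as they do for Calca, Cited1 and Tph1. Lower calls were made for 1.95% of all genes tested and higher calls for 2.06%. The call was lost without the filter on low genes (difference -5.81, adjusted p = 0.0571) and with equal library totals (-5.38, adjusted p = 0.05001). With any LdBC or Basal library left out, 1 residual degree of freedom was left and 0 of 10626 genes passed in any comparison, so that no call described here could be checked in that way; the Fxyd2 difference then ran from -6.19 to -5.43. The other 7 members found in Luminal had larger standard errors than Fxyd2, and differences on either side of its own. Calca had -7.87 (SE 2.97, limma adjusted p = 0.18), Gpx3 -7.02 (SE 2.70, adjusted p = 0.184) and Stc2 -5.61 (SE 2.16, adjusted p = 0.185). Ptn, Tph1, Cited1 and Ly6a lay between -4.51 and -3.09 (limma adjusted p = 0.133 to 0.272). At an unadjusted p under 0.05, 2 of the 9 were lower (Fxyd2 and Cited1), as were 14.5% of all genes, and 0 were higher, where 16.7% of all genes were. The median difference over the 9 was -4.51, beside 0.01 over all genes. Luminal has 1 library, assumed to vary like the others.

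LdBC against Basal gave no call among the 9 genes, and 1 (0.00941%) among all genes. For 5 members each LdBC value exceeded each Basal value, Calca, Gpx3, Fxyd2, Cited1 and Ly6a. Such an arrangement was found in 30.5% of all genes tested. At an unadjusted p under 0.05 in limma, 4 of the 9 were higher (Fxyd2, Ly6a, Cited1 and Calca) and 0 lower, where 12.9% of all genes were higher and 7.12% lower. The reverse arrangement, both LdBC below both Basal libraries, held for 0 members and for 18.6% of all genes. Ly6a differed by 4.79 (SE 0.91, limma adjusted p = 0.129) and Gpx3 by 3.92 (SE 2.20, adjusted p = 0.431). For Fxyd2, Cited1, Calca and Tph1, which were listed at 0 in Basal, the limma adjusted p was 0.123, 0.144, 0.228 and 0.558. The sign of 2 differences depended on LdBC-1. Ptn was at -0.43 (SE 1.89, limma adjusted p = 0.933) with both, and at 2.10 without LdBC-1. Ramp3 was at -2.22 (SE 1.76, adjusted p = 0.557) with both, and at 0.045 without LdBC-1. Stc2 was at 1.11 (SE 1.76, adjusted p = 0.774) with both; LdBC-1 is listed at 0, so no difference is given for that library alone.

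Basal against Luminal had 3 calls among the 9 genes, all lower in Basal, where 5.08% of all genes were called lower and 3.23% higher. Ly6a fell (limma, log2 difference -7.88, SE 1.12, adjusted p = 0.0458, lower in 2 of 2 Basal libraries). Fxyd2 and Cited1, both listed at 0 in Basal, also passed (limma adjusted p = 0.0349 and 0.0461). Their Basal values had no spread, which lowers the pooled standard error of both. The calls of Cited1 and Ly6a were lost without the filter on low genes, with median-of-ratios scaling, with equal totals and without the trend (adjusted p = 0.0518 to 0.0584), and that of Ly6a with a pseudocount of 0.1 (adjusted p = 0.0834). Gpx3 (-10.94, SE 2.70, limma adjusted p = 0.0805), Stc2 (-6.72, SE 2.16, adjusted p = 0.117) and Ptn (-4.08, SE 2.31, adjusted p = 0.272) did not pass. Calca, with the highest Luminal level of the 9, did not pass either (adjusted p = 0.0603). At an unadjusted p under 0.05 there were 7 of 9 lower, beside 21.6% of all genes, and 0 higher, beside 16.5%. The comparisons share libraries, so their results are not independent.

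**Figure D4:**
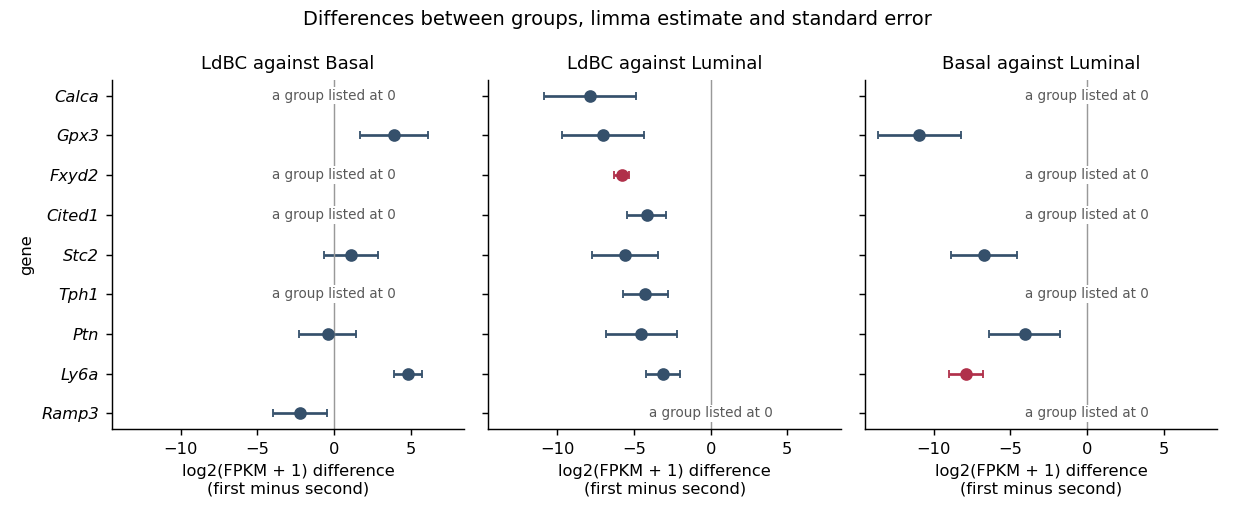
Difference of each gene between groups as estimated by limma on log2(FPKM + 1), first group minus second, with its standard error; red points passed at an adjusted p under 0.05, and no difference is drawn where all libraries of a group were at 0. Fxyd2 in LdBC against Luminal and Ly6a in Basal against Luminal have the shortest error bars among the points below 0 in their panels and are the red points.

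Receptors and paracrine mediators of the hormone response were followed beside the members. Of 10 genes of that list in the table, 10 were highest in Luminal (38.5% of all genes tested were), and the median share of the Luminal level was 0.336% in LdBC-1 and 6.17% in LdBC-2. Prlr, the prolactin receptor gene, reached 743 FPKM in Luminal, 7.41 in LdBC-1, 68.6 in LdBC-2 and 0 in both Basal libraries. Areg, the EGF receptor ligand amphiregulin, had 1378, then 25.9 and 211, then 0.199 and 2.55. Tnfsf11, which encodes the mediator RANKL, had 164 in Luminal and 9.72 in LdBC-2, and was listed at 0 in the others. Foxa1, a cofactor of the estrogen receptor, had 78.7, then 0.529 and 5.04, then 0 in both Basal libraries. The genes of the estrogen and progesterone receptors were lower and did not share this order. Esr1 (estrogen receptor) had 14.3 in Luminal, 0 and 2.43 in the LdBC pair, and 2.33 and 2.17 in the Basal pair. Pgr (progesterone receptor) had 31.2, then 0 and 0.863, then 1.24 and 0. Neither had both LdBC libraries above both Basal libraries. Of 9 tested genes of the list, 0 passed in LdBC against Luminal (limma; 1.95% of all genes were called lower). At an unadjusted p under 0.05, 6 were lower there, where 14.5% of all genes were. In LdBC against Basal 0 passed, and 2 were higher unadjusted, where 12.9% of all genes were. In Basal against Luminal 1 passed, Prlr, which fell (limma adjusted p = 0.0485; 5.08% of all genes were called lower). Wnt5a, with 4.09 in Luminal, 3.96 in LdBC-1 and 0.0869 in LdBC-2, was the only member of that list lower in LdBC-2 than in LdBC-1, and Prom1 was listed at 0 in both.

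In the calcitonin family, the peptide genes Calca, Calcb and Adm were highest in Luminal and the Ramp genes were listed at 0 there. Calcb reached 35.6 FPKM in Luminal, was listed at 0 elsewhere, and passed as lower in LdBC and in Basal against Luminal (limma adjusted p = 0.044 and 0.0349). The LdBC and Basal values of Calcb had no spread, so its standard error came only from what limma borrows from other genes. These calls rest on the Luminal library alone and say nothing about variation between replicates. Calca, which shares coding letters with Calcb, had 41755 in Luminal. The part of Calca fragments in the Calcb value was not tested. Adm, which encodes the vasodilator adrenomedullin, had 315 in Luminal, 49.0 and 55.4 in the LdBC pair, and 49.8 and 66.7 in the Basal pair. It fell in both comparisons with Luminal (limma, -2.57, SE 0.30, adjusted p = 0.0498 for LdBC and -2.43, SE 0.30, adjusted p = 0.0426 for Basal). Ramp1 had 9.69 and 7.18 in the LdBC pair, and 4.51 and 8.16 in the Basal pair. Ramp2 was found in the Basal libraries alone, at 10.3 in Basal-1 and 0.688 in Basal-2. Among 6 tested genes of this family, 2 passed as lower and 0 as higher in each of these comparisons. Of all genes, 1.95% (LdBC) and 5.08% (Basal) were called lower. Of the 2, Calcb had no spread of its own. The calls of Adm and Calcb in LdBC against Luminal were lost without the filter on low genes and with equal totals, where the 4 genes called were all higher. The receptor genes Calcr and Calcrl were on the list but were not found under these names, so no level is given for them.

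Partners of the enzymes and of the pump regulator were mixed: 4 of 10 genes of the serotonin list, 5 of 10 of the glutathione peroxidase list and 4 of 9 of the sodium pump list were highest in Luminal, members included. Over all genes tested, 38.5% were highest in Luminal, so these counts lie near that share. In the serotonin list, with 10 tested genes, 0 passed in any comparison (limma; at an unadjusted p under 0.05, 1 higher and 1 lower in LdBC against Basal, 2 and 2 in LdBC against Luminal, and 3 and 3 in Basal against Luminal). Over all genes the shares higher and lower were 12.9% and 7.12%, 16.7% and 14.5%, and 16.5% and 21.6% in the same comparisons. Ddc, which encodes the enzyme of the step after Tph1, was at 0 in Luminal and reached 4.92 FPKM in LdBC-1 and 3.23 in LdBC-2. Spr and Qdpr, which make and recycle the cofactor of Tph1, were highest in Luminal, with Spr at 49.9 there and 5.90 to 11.1 elsewhere, and Qdpr at 109 there and 14.3 to 48.1 elsewhere. Gch1, also needed for this cofactor, had 23.6 in Luminal, 89.8 and 53.4 in the LdBC pair, and 81.7 and 58.1 in the Basal pair. Gpx1 and Gpx4, the intracellular glutathione peroxidases, were spread over all libraries. Gpx1 had 665 in Luminal, 392 and 440 in the LdBC pair, and 144 and 152 in the Basal pair. It fell in Basal against Luminal (limma, -2.16, SE 0.19, adjusted p = 0.0349). Gpx1 was the only 1 of 10 tested genes of the glutathione peroxidase list to pass there, where 5.08% of all genes were called lower. Gpx4 had 872, then 1216 and 1131, then 450 and 433, and did not pass. Fxyd3, another sodium pump regulator, had 615 in Luminal and 970 to 1321 in the other 4 libraries. Atp1b1, a subunit of the pump, had 318 in Luminal, 118 and 89.6 in the LdBC pair, and 2.60 and 7.74 in Basal, and it fell in Basal against Luminal (limma, -5.83, SE 0.67, adjusted p = 0.039). It and Fxyd2 were the 2 of 9 tested genes of the sodium pump list that passed in that comparison, beside 5.08% of all genes called lower.

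**Figure D5:**
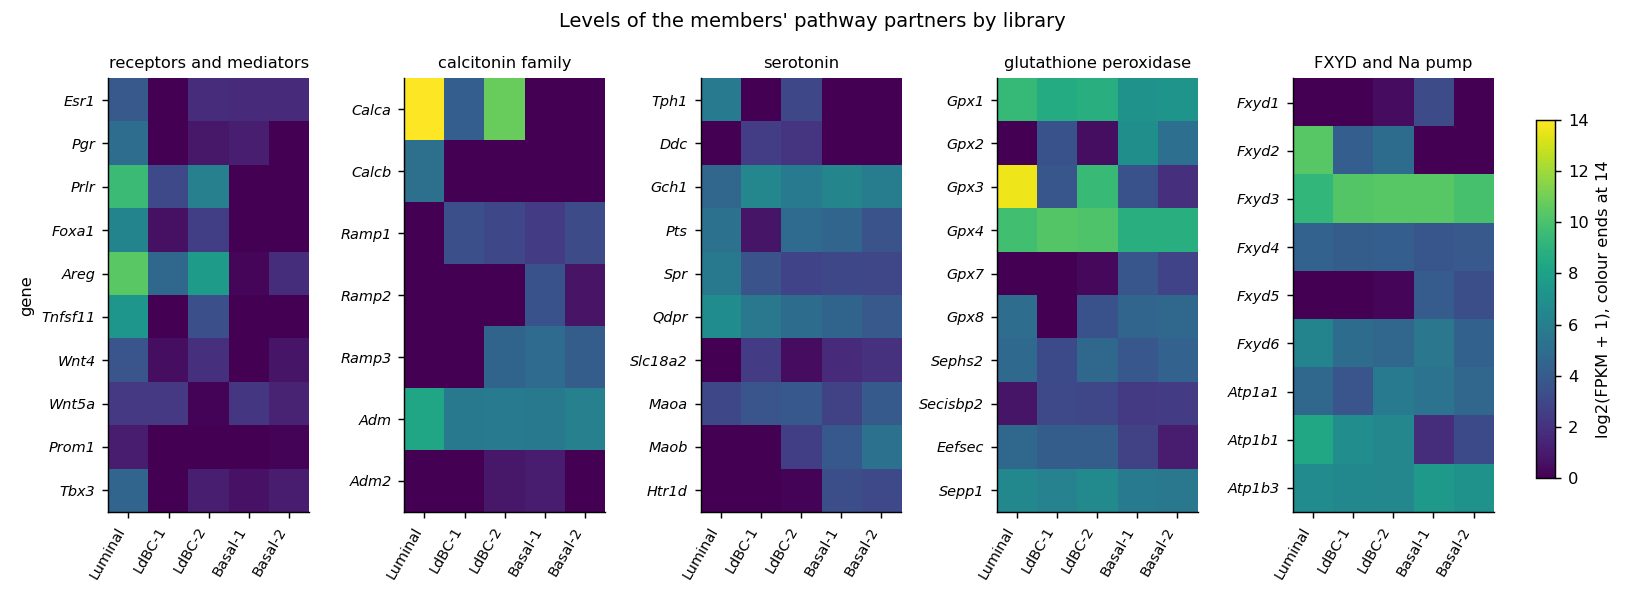
Heat maps of log2(FPKM + 1) by library (columns) for the genes (rows) of 5 lists, with the members in place among their partners; the colour scale runs from 0 to 14, and Calca in Luminal exceeds it. Calca, Gpx3 and Fxyd2 are bright in Luminal, whereas Gpx4 and Fxyd3 are bright in all 5 libraries and the Ramp genes are dark in Luminal.

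Relatives of the remaining members were mixed too, some with the order of the members and some not. Cited2, a paralog of Cited1, reached only 0.25 FPKM in Luminal, 35.3 and 28.8 in the LdBC pair, and 7.73 and 4.17 in the Basal pair, and did not pass (limma adjusted p = 0.0507 in LdBC against Luminal). Cited4 had 80.3 in Luminal and 12.8 in LdBC-1, and was listed at 0 in the others. Stc1 was found at 24.6 in LdBC-1 and 2.01 in Basal-1, and was listed at 0 in LdBC-2, where Stc2 was present. Mdk, which encodes midkine, the paralog of pleiotrophin, had 29.8 in Luminal, 16.3 and 5.14 in the LdBC pair, and 135 and 75.2 in the Basal pair. Of 8 tested genes of its list, 0 passed in any comparison (limma). In Basal against Luminal 2 were higher and 1 lower at an unadjusted p under 0.05, where 16.5% and 21.6% of all genes were. Igfbp5, a substrate of pappalysins, rose in Basal against Luminal, from an FPKM of 25.1 to 121 and 138 (limma adjusted p = 0.0369). It was 1 of 5 tested genes of the stanniocalcin list to pass there, where 3.23% of all genes were called higher. In the Ly6 list, 5 of 8 genes were highest in Luminal, beside 38.5% of all genes tested. In Basal against Luminal 2 of 7 tested genes of this list, Ly6a and Ly6e, fell, where 5.08% of all genes were called lower. Ly6e had the order Luminal, LdBC-2, LdBC-1 and Basal seen in 4 members, with 1577, then 828 and 961, then 293 and 330 (limma, -2.34, SE 0.20, adjusted p = 0.0349).

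Genes with the most similar profile were found by Euclidean distance over the 5 libraries, on log2(FPKM + 1) centred on each gene, among 6617 genes whose mean FPKM reached 5. The 5 nearest to the mean profile of the 9 members were Apof, Tspan1, Fam25c, Prr15l and Cox7a1 (distance 0.895 to 0.971). All 5 were listed at 0 in LdBC-1 and in both Basal libraries, and in LdBC-2 they were at 12.0% to 21.8% of Luminal. Nearest to Calca alone were Hp, Prlr, Agtr1a, Cdo1 and Areg (distance 5.25 to 5.60), so no gene matched its range closely. In LdBC-2 these were at 4.31% to 15.3% of Luminal, and in LdBC-1 at 0.00763% to 1.88%. Of the 9 members, Tph1 was nearest to their mean profile (1.56) and Ramp3 farthest (9.73).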

How the data were processed

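Per the submitters' processing notes, the tools were Cufflinks 2.0.2, TopHat2 2.0.4 and Cuffdiff 2.0.2, and the build was mm10; the annotation was not given in the sources used here. Per the labels' protocols, RNA from guanidine lysates was amplified by modified Smart-seq2. The deposited log2 values are log2(FPKM + 1) by the authors. The base and the offset follow from the values themselves. With base 2, 99.69% to 99.78% of values above 1 return an FPKM of 6 significant digits within 0.02 of the last digit (at most 4.63% with base e or 10). The highest FPKM of each row exceeds 1. Date-like names (18 rows) were left out.

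The test was limma 3.58.1 in R 4.3.3, with an intensity trend, on all 5 libraries in 1 fit with a mean per group, over 10626 genes with a mean FPKM of at least 1. All 9 members passed this filter, some through the group where they are high. Log2 differences use a pseudocount of 1, which understates changes of low genes. Two-sided p-values were adjusted by Benjamini-Hochberg over all genes of a comparison, with calls under 0.05. They rest on 2 residual and 1.65 prior degrees of freedom, and reflect the spread among the libraries alone, possibly technical. The script was run on simulated data, with changes placed only in genes of a higher mean level than any of the 9 members. That run therefore says nothing about calls for genes at the level of the members.

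The 9 genes, the lists, the rule for named genes (the members, their lists and the 5 nearest profiles) and the motifs were chosen with earlier results of these data known, and no list was tested as a set. Alternatives were other pseudocounts, filters and scalings, no trend, leaving out each library, and a replicate block. Columns that could not be mapped numbered 0.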

Additional observations from a re-analysis of the deposited data

How the results depend on the processing

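The number of genes called depended strongly on the setting, and the 9 members' calls sit near the threshold. In LdBC against Basal (1 call) there were 0 with median-of-ratios scaling, without the trend and at a pseudocount of 0.1, 2 with a mean FPKM of at least 5, and 4 with quantile normalization (3 higher, 1 lower). In LdBC against Luminal (426 calls, 219 higher and 207 lower) there were 1175 (865 higher, 310 lower) with a pseudocount of 0.1, 4 (all higher) without the filter on low genes and 4 (all higher) with equal totals. There were 788 with a mean FPKM of at least 5, 258 (152 higher, 106 lower) with median-of-ratios scaling and 647 without the trend. Quantile normalization gave 184 higher and 111 lower. A pseudocount of 5 gave 135 higher and 348 lower. In Basal against Luminal (883 calls, 343 higher and 540 lower) there were 1826 (1101 higher, 725 lower) with a pseudocount of 0.1, 488 without the filter, 1621 with a mean FPKM of at least 5 and 570 (352 higher, 218 lower) with median-of-ratios scaling. The split was 444 and 229 with equal totals, 428 and 359 with quantile normalization, 363 and 325 without the trend, and 246 and 876 with a pseudocount of 5. The causes were not tested, apart from the number of genes in the filters.

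Leaving out any library gave 0 calls in every comparison it could enter, that is, a range of 0 to 0; with 1 residual degree of freedom (LdBC or Basal left out) this says nothing about stability. At an unadjusted p under 0.05 in limma there were then 1240 to 2993 genes in LdBC against Basal, 2105 to 4182 in LdBC against Luminal and 2245 to 4887 in Basal against Luminal. The samples share only a replicate number: across 10626 genes the correlation of replicate 1 minus 2 in LdBC with that in Basal was 0.01. With the replicate block, LdBC against Basal had 0 calls (limma, 1710 unadjusted), and no member passed.

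Of 342 values of single members under the alternatives, 3 changed sign: in LdBC against Basal, Ptn became 2.10 and Ramp3 0.045 without LdBC replicate 1, and Stc2 became -0.98 without LdBC replicate 2. Over all left-out libraries they ran from -2.96 to 2.10, from -4.49 to 0.045 and from -0.98 to 3.21. The values -0.98 and -4.49 set LdBC-1, listed at 0, against Basal and are no folds. Another 27 lost a call and 2 gained one. The 27 include 4 losses for each LdBC or Basal library left out. No gene passed in those settings, so these losses say nothing about stability. Both gains are Calca in Basal against Luminal, with a pseudocount of 0.1 (limma adjusted p = 0.044) and with a mean FPKM of at least 5 (0.0373). Tph1 had no difference from Basal without LdBC replicate 2. The median share of the Luminal level over 8 members was 0.333% to 0.455% in LdBC-1 and 8.77% to 13.3% in LdBC-2 over the scalings. The median difference over all genes moved from 0.20 to -0.17 in LdBC against Basal, from 0.01 to 0.30 in LdBC against Luminal and from -0.13 to 0.48 in Basal against Luminal with equal totals. Depth is unknown, so values at 0 carry no upper limit.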
